A study of Mus musculus with 8 samples.

Results

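The genes described here are the collagen genes of the mouse, in molar tooth germs with and without a working copy of Notum, which encodes a secreted enzyme that inactivates Wnt proteins. They were taken by name as every protein-coding gene called Col, a number, a and a number, which gave 44 genes among the 54532 listed (22046 of them protein-coding). RNA was sequenced in bulk from maxillary and mandibular molar germs of Notum+/+ and Notum−/− littermates at the embryonic ages E14.5 and E16.5. The line carries the allele Notumem1(IMPC)Tcp on C57BL/6N, and the Notum−/− mice lack the gene in every tissue. There were 2 libraries in each of 4 groups, Notum+/+ and Notum−/− at either age, and 8 libraries in all. Each library was a pool, given as n = 3 in the methods without saying whether embryos or germs. Levels are FPKM as deposited, fragments per kilobase of gene after scaling for library depth, so that levels can be set side by side between genes. With 2 libraries a group, both values are printed in place of a mean and SD.

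Collagens are trimers of α chains wound into a triple helix. Fibrillar collagens build the banded fibrils of connective tissue, and collagens with interrupted helices (FACIT) sit on the surface of those fibrils. Type IV chains form the network of basement membranes, type XVII spans the epithelial cell membrane at hemidesmosomes, and type VII makes the fibrils that anchor the basement membrane to the tissue beneath. In a tooth germ a basement membrane separates the dental epithelium from the mesenchyme, whose papilla and follicle make types I and III, and odontoblasts later secrete the type I collagen of dentin.

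As a check of the labels, Notum had 2.65 and 1.85 FPKM in Notum+/+ and 1.002 and 1.04 FPKM in Notum−/− at E14.5. At E16.5 the values were 9.33 and 9.57 FPKM in Notum+/+ against 2.72 and 2.31 FPKM in Notum−/−. Reads on listed genes ranged from 21972354 to 30540596 per library. The methods describe groups of mixed sex, but Ddx3y, a gene of the Y chromosome, was listed at 0 FPKM in each of the Notum+/+ libraries at E16.5 and lay between 6.26 and 17.8 FPKM in the other 6, so sex and genotype cannot be told apart at E16.5. The pools also differed at E14.5, where Ddx3y was at 6.26 and 6.96 FPKM in Notum+/+ against 17.8 and 16.9 FPKM in Notum−/−. All 4 Y-linked genes tested were lower at E16.5 than at E14.5 in either genotype. By the adjusted p used below, 4 of 4 passed in Notum+/+ and 3 of 4 in Notum−/−. All 4 also passed in the difference of genotype effects between the ages. The part of sex in the collagen values of these comparisons was not tested. In bulk tissue, fewer cells of a type and less RNA per cell cannot be told apart either.

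By class, the 44 genes were 11 fibrillar, 6 basement membrane (Col4), 9 FACIT, 3 short-chain network (Col8 and Col10), 7 of the beaded filament and von Willebrand A group (Col6 and Col28), 4 transmembrane, 2 multiplexin (Col15 and Col18), the anchoring fibril gene Col7a1 and Col26a1. A cartilage list cut across these classes with 7 genes, Col2a1, Col9a1, Col9a2, Col9a3, Col10a1, Col11a1 and Col11a2. The genes lie on 15 chromosomes of mm10, and several lie beside each other. Col4a1 and Col4a2 start head to head on chromosome 8 and share 22 bases, Col4a4 and Col4a3 start head to head on chromosome 1 with 71 bases between them, and Col4a6 and Col4a5 do so on the X chromosome with 1308 bases between them. Col6a2 and Col6a1 on chromosome 10, and Col6a6, Col6a5 and Col6a4 on chromosome 9, lie in tandem.

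The bases just upstream of 4 members are shown as examples of genes that were higher (Col3a1 and Col6a3) and lower (Col7a1 and Col17a1) in Notum−/− molars at E16.5. They were taken from RefSeq (GRCm38.p6) on the strand of the gene and stop before the first listed base of the gene. Capitals mark matches on either strand to any of 4 motifs. The TATA box was searched as TATAAA. The second motif, known from many promoters and named after its letters, was CCAAT. The GC box bound by Sp1 was searched as GGGCGG. The core recognised by TCF and LEF factors, which act downstream of Wnt, was searched as CTTTGA. No spelling overlaps another.
Col3a1, chr1:45311288-45311537, plus strand: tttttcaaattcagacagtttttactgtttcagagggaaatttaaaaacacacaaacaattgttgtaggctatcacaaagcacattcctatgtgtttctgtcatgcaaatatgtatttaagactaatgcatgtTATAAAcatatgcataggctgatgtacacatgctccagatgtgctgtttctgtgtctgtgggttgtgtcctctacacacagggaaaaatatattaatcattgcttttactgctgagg
Col6a3, chr1:90843972-90844221, minus strand: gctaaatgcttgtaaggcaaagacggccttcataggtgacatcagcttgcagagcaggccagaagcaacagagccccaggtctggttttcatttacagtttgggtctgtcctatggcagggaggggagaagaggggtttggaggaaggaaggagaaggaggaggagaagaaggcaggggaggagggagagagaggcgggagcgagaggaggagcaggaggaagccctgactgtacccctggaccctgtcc
Col7a1, chr9:108953336-108953585, plus strand: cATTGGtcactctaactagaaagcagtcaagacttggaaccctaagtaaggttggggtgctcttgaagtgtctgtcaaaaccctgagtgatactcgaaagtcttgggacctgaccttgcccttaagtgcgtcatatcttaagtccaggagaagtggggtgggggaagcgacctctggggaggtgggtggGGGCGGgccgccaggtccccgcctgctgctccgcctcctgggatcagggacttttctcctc
Col17a1, chr19:47692095-47692292, minus strand: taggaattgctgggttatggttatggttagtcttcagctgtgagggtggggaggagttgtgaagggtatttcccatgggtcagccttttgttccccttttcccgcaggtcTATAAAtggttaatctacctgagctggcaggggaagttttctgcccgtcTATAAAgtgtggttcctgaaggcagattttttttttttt

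None of the 4 windows holds CTTTGA. The Col3a1 window holds TATAAA 117 bases upstream of the RefSeq start, and Col17a1 holds it 140 and 91 bases upstream of its own. The RefSeq start of Col17a1, base 47692042, lies inside the listed gene, so its printed window was cut to 198 bases. Its matches thus lie closer to the end of the printed bases than these distances. Col7a1 holds a CCAAT match and a GC box, and Col6a3 holds none of the motifs searched. Over all 32851 windows of 250 upstream bases in the RefSeq table, 12.4% held TATAAA, 33.8% CCAAT, 32.7% GGGCGG and 13.8% CTTTGA. Over the 38 windows of the 35 collagen genes found there, the shares were 13.2%, 34.2%, 57.9% and 23.7%. A match of letters is a description and does not show a bound factor.

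Collagen transcripts were abundant in all 8 libraries. Col1a1 and Col1a2, whose chains form type I collagen, and Col3a1, the chain of type III, led by a wide margin. Col1a1 was the protein-coding gene ranked 7 by mean level in the whole table, at 1052 and 974 FPKM in Notum+/+ and 1191 and 1355 FPKM in Notum−/− at E14.5, and at 1194 and 1105 against 1450.2 and 1478 FPKM at E16.5. Col3a1 ranked 35, with 355 and 372 against 444 and 419 FPKM at E14.5 and 421 and 426 against 513 and 516 FPKM at E16.5. Col1a2 ranked 39, with 367 and 382 against 439 and 430.4 FPKM at E14.5 and 368 and 363 against 501 and 504 FPKM at E16.5. In each of these 3 genes both Notum−/− libraries lay above both Notum+/+ libraries at either age.

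The next 7 genes were chains of types IV, V and VI. Col6a1, a core chain of the type VI beaded filament, was at 137 and 134 against 161 and 163 FPKM at E14.5 and at 166 and 160.4 against 176 and 176 FPKM at E16.5. Its partner Col6a2 was at 86.4 and 80.8 against 89.99 and 94.4 FPKM and at 86.4 and 81.7 against 92.1 and 91.0 FPKM at the same ages. Col6a3, the long chain of the same filament, was at 121 and 123 against 124 and 131 FPKM at E14.5, and at 93.7 and 86.2 against 124 and 125 FPKM at E16.5. Col5a1 and Col5a2 encode chains of type V, which is built into type I fibrils. Col5a1 was at 145 and 136 against 148 and 163 FPKM at E14.5 and at 119 and 110.0 against 128 and 130.3 FPKM at E16.5. Col5a2 was at 108 and 109 against 109 and 103 FPKM, and at 85.5 and 86.6 against 107 and 107 FPKM. Col4a1 and Col4a2 make the common basement membrane network. Col4a1 was at 94.8 and 93.6 against 96.5 and 106 FPKM at E14.5 and at 153 and 139.6 against 127 and 134 FPKM at E16.5. Col4a2 was at 72.8 and 71.1 against 68.6 and 75.2 FPKM, and at 108 and 100.3 against 91.3 and 92.6 FPKM. At E16.5 each Notum−/− library had less Col4a1 and Col4a2 than either Notum+/+ library, whereas Col5a1 and Col5a2 had the reverse order. Col5a2 passed the adjusted p used below at that age, and Col4a1, Col4a2 and Col5a1 did not.

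Across the family, 8 genes had a mean above 100 FPKM, 19 lay between 10 and 100, 10 between 1 and 10, and 7 at or under 1. The genes near the bottom included Col10a1, the collagen of hypertrophic cartilage, with 0 to 12 reads per library, and Col4a3, a chain of the kidney and lung basement membrane, with 2 to 14 reads. Col4a4, Col19a1 and Col6a4 rested on 11 to 78 reads per library. These 5 genes were left out of every test by a filter of 0.3 FPKM on the mean, and Col6a5 was left out of 3 of the 5 comparisons and Col28a1 of the comparison of genotypes at E14.5.

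**Figure D1:**
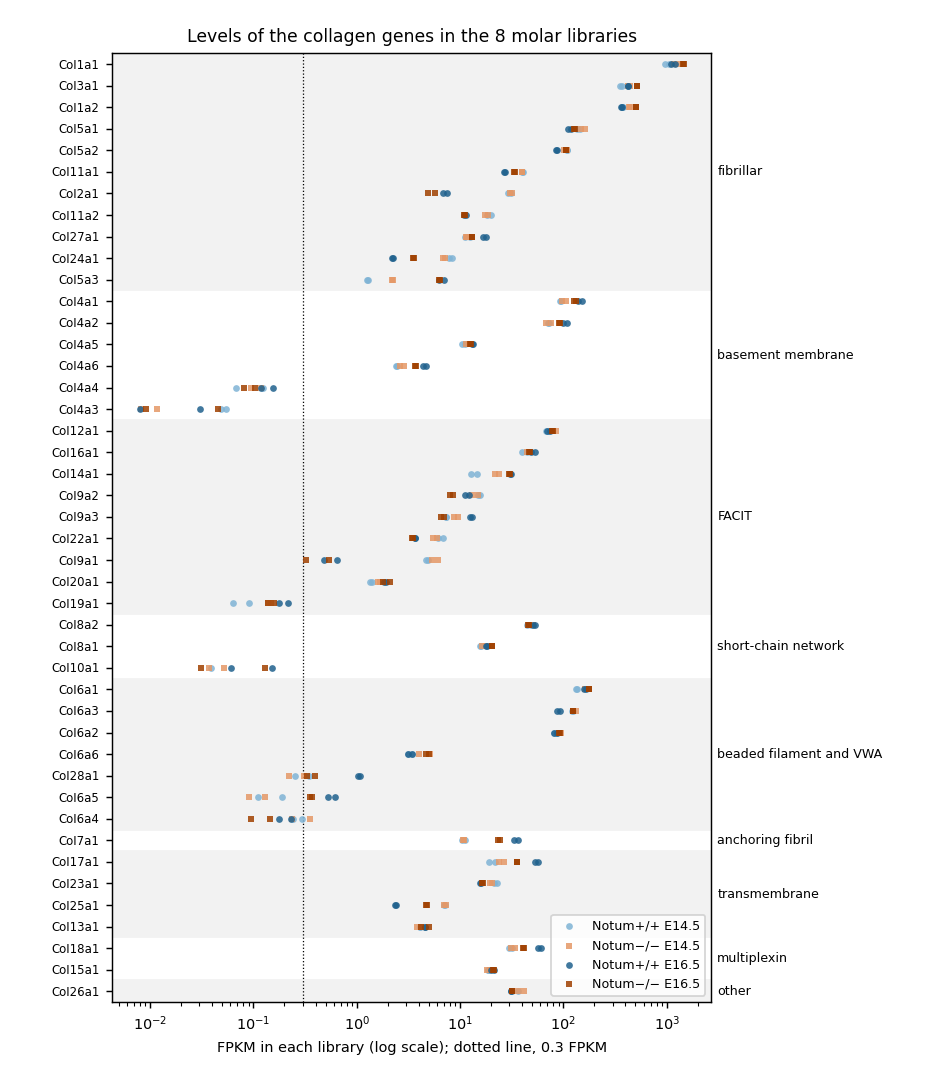
FPKM of each of the 44 collagen genes in each of the 8 libraries on a log axis, with genes grouped by class and ordered by mean level, circles for Notum+/+ and squares for Notum−/−, pale for E14.5 and dark for E16.5. Col1a1 lies farthest to the right, at 974 FPKM or more in every library, and Col4a3, Col4a4, Col10a1 and Col19a1 lie to the left of the dotted line at 0.3 FPKM.

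Together the collagen genes took 2.57% and 2.52% of the reads on listed genes in Notum+/+ at E14.5, 2.86% and 2.999% in Notum−/− at E14.5, 2.81% and 2.68% in Notum+/+ at E16.5, and 3.22% and 3.25% in Notum−/− at E16.5. Both Notum−/− libraries lay above both Notum+/+ libraries at each age, and with 2 libraries against 2 an exact two-sided permutation test cannot go below p = 0.333. Col1a1, Col1a2 and Col3a1 made up 58.1% to 64.5% of the summed collagen FPKM. Of that sum, fibrillar genes were 66.8% and 67.1% in Notum+/+ and 72.5% in both Notum−/− libraries at E16.5, against 70.1% and 70.3% and 71.7% in both at E14.5. Basement membrane genes were 8.26% and 8.01% in Notum+/+ at E16.5, and 6.13% and 6.28% in Notum−/−. At E14.5 the same share was 5.92% and 6.03%, and 5.31% and 5.44%. At E16.5 transmembrane genes held 2.36% of the sum in each Notum+/+ library and 1.59% in each Notum−/− library, and multiplexin genes 2.41% and 2.40% against 1.62% in both.

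**Figure D2:**
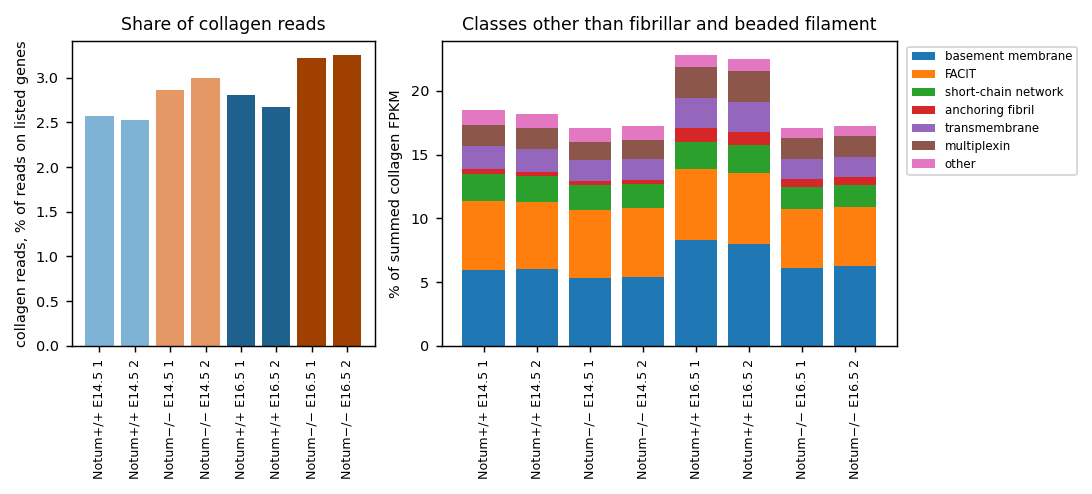
Left, reads on the 44 collagen genes as a percentage of reads on listed genes, a bar for each library. Right, the share of the summed collagen FPKM held by each class other than the fibrillar and the beaded filament classes, which fill the rest to 100. The stacks are tallest in the Notum+/+ libraries at E16.5, where fibrillar genes held 66.8% and 67.1%.

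Notum−/− molars at E16.5 had more RNA of Col1a2, Col6a3, Col24a1 and Col25a1 than Notum+/+ molars, and less RNA of Col17a1, Col7a1, Col18a1 and Col9a3. Of the 39 collagen genes tested, 20 passed an adjusted p of 0.05 (limma on log2(FPKM + 0.1) with Benjamini-Hochberg adjustment over all 18570 genes tested), 10 higher and 10 lower in Notum−/−. Over all genes tested 30.9% passed, 2686 higher and 3061 lower. In 33 of the 39 the genotypes did not overlap, against 69.9% of all genes tested. The 10 that were higher included 6 fibrillar genes, and the 10 that were lower came from 8 classes. The median log2 fold change was −0.021 over the 39 and 0.0029 over all genes tested.

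Among the 11 fibrillar genes, all of which were tested, 6 were higher, 2 were lower and 3 did not pass (median log2 fold change 0.28). The largest log2 fold change was that of Col24a1, a minor fibrillar chain known from developing bone, at 2.26 and 2.22 FPKM in Notum+/+ and 3.50 and 3.61 FPKM in Notum−/− (0.64, SE 0.08, adjusted p = 0.00897 by limma). Col1a2, with the values given above, followed at 0.46 (SE 0.05, adjusted p = 0.00823 by limma). Its chain partner Col1a1 had 0.35 (SE 0.09, adjusted p = 0.0465) and the type III gene Col3a1 0.28 (SE 0.06, adjusted p = 0.0252). Both of these calls were lost in some alternatives that kept the 4 libraries. Col1a1 missed the threshold with a pseudocount of 1 FPKM, no filter, no trend of variance, the replicate block (limma adjusted p = 0.193) and all 8 libraries in one fit. Col3a1 missed it with no filter, no trend, the replicate block (limma adjusted p = 0.114) and the length trend removed. Col5a2 and Col11a1, the latter a chain that limits fibril width, were each higher by 0.31 on the log2 scale (SE 0.04; limma adjusted p of 0.0087 and 0.0093). Col11a1 was at 27.5 and 27.0 FPKM in Notum+/+ and 33.3 and 34.2 FPKM in Notum−/−. Col5a1 did not pass (adjusted p = 0.0736 by limma), and neither did Col5a3 and Col11a2. The fibrillar genes that were lower were Col2a1, the main collagen of cartilage, at 7.46 and 6.92 against 5.68 and 4.94 FPKM (−0.43, SE 0.09, adjusted p = 0.0279), and Col27a1, a fibrillar chain of cartilage and of developing teeth, at −0.40 (SE 0.05, adjusted p = 0.0096).

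In the beaded filament class, 2 of 6 tested genes were higher and 1 was lower. Col6a3, whose upstream bases are printed above, was higher by 0.47 on the log2 scale (SE 0.06, adjusted p = 0.00806), while Col6a1 and Col6a2 did not pass (limma adjusted p of 0.131 and 0.107). The 3 chains assemble together, and the ratio of Col6a3 to Col6a2 in FPKM was 1.09 and 1.06 in Notum+/+ against 1.35 and 1.37 in Notum−/−. Col6a6, which can take the place of Col6a3 in the filament, was at 3.47 and 3.16 against 4.72 and 5.01 FPKM (0.54, SE 0.08, adjusted p = 0.0136). Col28a1, known from the basement membrane around Schwann cells, was at 1.08 and 1.03 FPKM in Notum+/+ and at 0.397 and 0.332 FPKM in Notum−/−, the largest fall of the family (−1.32, SE 0.22, adjusted p = 0.016). It rested on 134, 133, 60 and 36 reads in these 4 libraries. In the same libraries 9 of 10 marker genes of Schwann cells and neurons were lower (median log2 fold change −1.74). Their part in the value of Col28a1 was not tested.

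**Figure D3:**
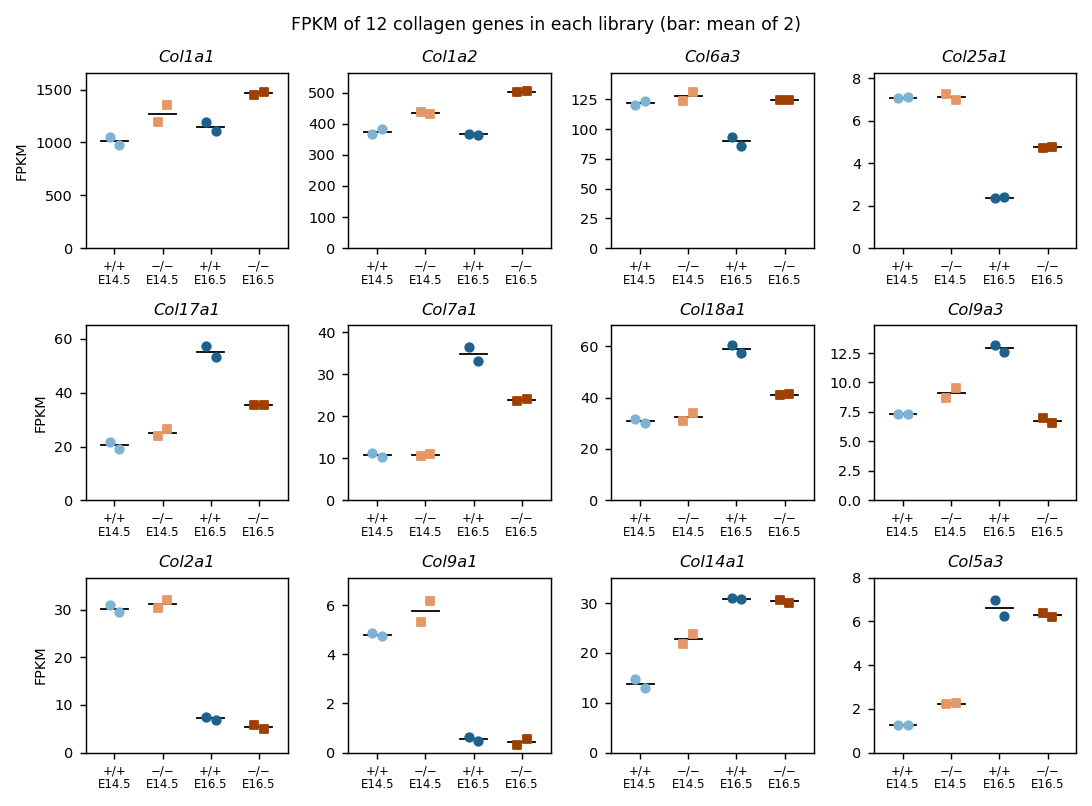
FPKM of 12 collagen genes in each library, in panels that start at 0, with a bar at the mean of the 2 libraries of a group. Col1a1, Col1a2, Col6a3 and Col25a1 lie higher in Notum−/− than in Notum+/+ at E16.5, Col17a1, Col7a1, Col18a1 and Col9a3 lie lower, and Col14a1 and Col5a3 lie apart at E14.5 and close together at E16.5.

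The transmembrane genes moved in both directions. Col25a1, a membrane collagen needed for the innervation of muscle, had the largest rise of the family: it was at 2.35 and 2.42 FPKM in Notum+/+ and 4.72 and 4.78 FPKM in Notum−/− (0.96, SE 0.07, adjusted p = 0.00494). The groups lay much farther apart than the libraries within either genotype. Markers of skeletal muscle were also higher in these libraries, 5 of 10 past the adjusted p (median log2 fold change 0.46), with Acta1, the actin of skeletal muscle, at 234 and 249 against 443 and 430.1 FPKM; their part in the value of Col25a1 was not tested. Col17a1, the hemidesmosome collagen, was at 57.2 and 53.2 against 35.3 and 35.5 FPKM (−0.64, SE 0.05, adjusted p = 0.00507). Col13a1 and Col23a1 did not pass.

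Col7a1, which makes anchoring fibrils, was at 36.5 and 33.1 against 23.6 and 24.2 FPKM (−0.54, SE 0.06, adjusted p = 0.00754). Col18a1, a proteoglycan of basement membranes and the source of endostatin, was at 60.3 and 57.2 against 40.8 and 41.4 FPKM (−0.51, SE 0.04, adjusted p = 0.0056). In Col7a1, Col17a1 and Col18a1 the lowest Notum+/+ library was well above the highest Notum−/− library. Of the 4 basement membrane genes tested only Col4a6, which lies on the X chromosome, passed (−0.29, SE 0.07, adjusted p = 0.0398), and Col4a2 missed the threshold (−0.18, SE 0.05, adjusted p = 0.0619), as did Col4a1 (−0.17, SE 0.07, adjusted p = 0.124) and Col4a5. The other multiplexin, Col15a1, did not pass. Col18a1 lies across 8825 bases of the antisense gene Slc19a1, whose mean of 5.49 FPKM was far below the 40.8 FPKM of Col18a1, and whether reads were counted by strand is not stated in the sources used here.

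Marker genes of the dental epithelium moved with these collagens. Of 9 tested, 8 were lower in Notum−/− at E16.5 and none was higher (median log2 fold change −0.45). Krt14, a keratin of basal epithelial cells, was at 404 and 420.0 against 246 and 246 FPKM, and Epcam, an adhesion molecule of epithelia, at 69.4 and 69.7 against 51.2 and 50.4 FPKM. Markers of the stratified oral epithelium, which the dissection can carry along, were lower in 5 of 7 (median −0.83), and the sum of all 8 in the list ran from 1495 to 1594 FPKM in Notum+/+ and from 851 to 883 FPKM in Notum−/−. The part of these shifts in the values of Col17a1, Col7a1, Col18a1 and Col4a6 was not tested. Of 10 osteoblast markers 6 were higher and 3 lower (median 0.24), with Ibsp, a bone matrix protein, at 91.6 and 100.3 against 119 and 117 FPKM. Of 4 odontoblast markers tested at E16.5, 2 were lower and none was higher (median −0.28). The sum of the 5 listed ran from 134.5 to 140.8 FPKM in Notum+/+ and from 114.6 to 114.9 FPKM in Notum−/−. The defining product of odontoblasts, Dspp, was at or below 0.0408 FPKM in all 8 libraries. The part of the bone and odontoblast markers in the collagen values was not tested.

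In the FACIT class, 2 of 8 genes were lower and none was higher. Col9a3, a chain of the type IX collagen of cartilage fibrils, was at 13.2 and 12.6 FPKM in Notum+/+ and at 6.95 and 6.52 FPKM in Notum−/− (−0.93, SE 0.06, adjusted p = 0.00421). Its partner Col9a2 was at 12.2 and 11.1 against 7.95 and 8.57 FPKM (−0.49, SE 0.07, adjusted p = 0.0122), and the third chain, Col9a1, was under 1 FPKM in all 4 libraries at this age. Over the cartilage list 3 of 6 tested genes were lower, Col2a1, Col9a2 and Col9a3, and Col11a1 was higher (median −0.38). Cartilage markers outside the collagens were lower in 2 of 6 and higher in 1 (median 0.075, with 3 values above 0 and 3 below); Sox9, a regulator of cartilage that epithelial cells of the tooth germ also express, was at 20.8 and 19.7 against 13.9 and 15.4 FPKM, and Matn1, a matrix protein of cartilage, was at or below 0.203 FPKM. The short-chain genes split, with Col8a1 slightly higher (0.16, SE 0.04, adjusted p = 0.0391) and Col8a2 slightly lower (−0.18, SE 0.04, adjusted p = 0.0333). The large FACIT genes Col12a1 and Col16a1, at 69.9 to 79.7 and 46.7 to 52.8 FPKM at this age, did not pass.

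The number of collagen genes called at E16.5 depended on the 2 Notum−/− libraries, which were closer to each other than those of any other group: over the collagen genes compared, their median difference was 0.028 on the log2 scale against 0.070 to 0.10 in the other groups. Without replicate 1 of Notum−/− at E16.5, or without replicate 2, none of the 39 passed, and no gene of the whole table did. At an unadjusted p of 0.05, 23 of the 39 passed in the full fit, as did 44.2% of all genes tested. Scaling and base composition changed the split of directions. With values rescaled to TPM 21 passed, 13 higher and 8 lower, beside 32.1% of all genes tested. With each library's trend on GC content removed 21 passed, 16 higher and 5 lower, beside 17.4% of all genes tested. Collagen transcripts had a median GC content of 55.1%, against 50.02% over protein-coding genes above the filter. Col2a1 (62.2% GC), Col9a2 (62.7%), Col27a1 (59.4%), Col4a6 (53.6%) and Col8a1 (46.8%) no longer passed once that trend was removed, and Col8a2 (59.1%) changed sign to 0.033. Col2a1, Col4a6, Col8a1 and Col8a2 also missed the threshold with no filter and with no trend of variance. Col4a6, Col8a1 and Col8a2 missed it with the replicate block, and Col4a6 and Col8a2 with TPM. Col8a1 missed it with the length trend removed and with all 8 libraries in one fit. Col24a1, Col25a1, Col1a2, Col6a3, Col6a6, Col5a2 and Col11a1 among the genes that rose, and Col9a3, Col17a1, Col7a1 and Col18a1 among those that fell, passed in the same direction in all alternatives that kept the 4 libraries. Col28a1 did so in those in which it was tested, which leaves out the filter of 1 FPKM.

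**Figure D4:**
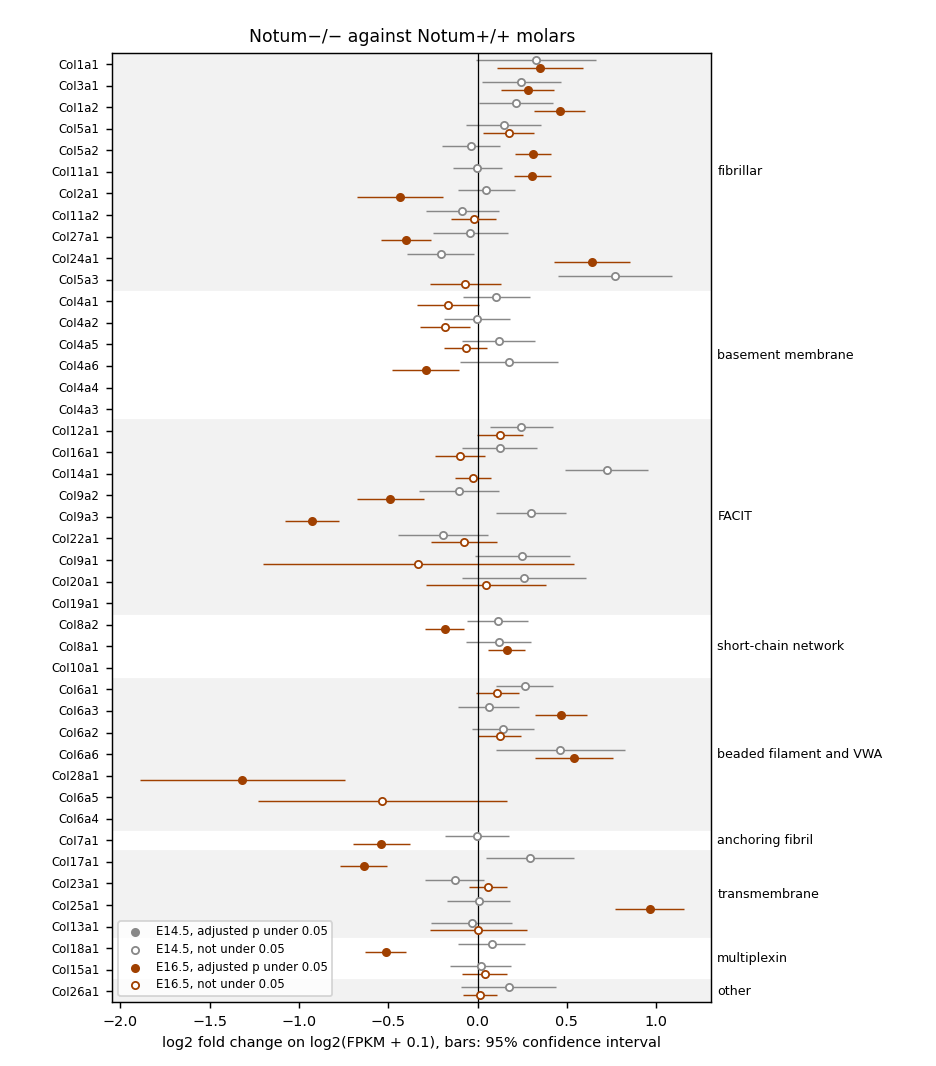
Log2 fold change of Notum−/− against Notum+/+ with its 95% confidence interval for each collagen gene tested, grey for E14.5 and brown for E16.5, filled where the adjusted p was under 0.05. At E16.5 filled points lie on both sides of 0, from −1.32 for Col28a1 to 0.96 for Col25a1, and at E14.5 no point is filled.

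Genes that act on collagen were read from lists of enzymes, binding partners and receptors, to be set beside the 30.9% of all genes tested that passed. The share was 72.7% for proteins that bind fibrils, 62.5% for receptors, 41.2% for chain modification and folding, 40.0% for crosslinking, 35.7% for basement membrane partners, 33.3% for degradation and 28.6% for propeptide cleavage. With 5 to 17 tested genes in a list, only the first 2 shares lay well above that of all genes. The others lay near it, and no list was tested as a set. Of 5 crosslinking enzymes 2 were higher in Notum−/− at E16.5. Lox, the lysyl oxidase that starts the crosslinks of fibrils, was at 45.9 and 45.2 against 96.4 and 103 FPKM (log2 fold change 1.13, SE 0.05, adjusted p = 0.00396), and Loxl2 was higher by 0.32 (SE 0.05, adjusted p = 0.0119). Of 11 proteoglycans and glycoproteins that bind fibrils, 8 were higher and none lower (median 0.43). Lum, which spaces fibrils, was at 135 and 151 against 214 and 209 FPKM, and Ogn, a small leucine-rich proteoglycan, at 59.2 and 63.5 against 127 and 127 FPKM. Among 14 partners of type IV collagen in basement membranes, none was higher and 5 were lower (median −0.21), with Lamc1, a laminin chain, at 73.2 and 66.7 against 56.0 and 59.0 FPKM.

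Of 17 genes for chain modification and folding, 5 were higher and 2 lower (median 0.0031, from −0.26 to 0.60). The lowest value was that of Serpinh1, the collagen chaperone Hsp47, at 534 and 527 against 439 and 447 FPKM (−0.26, SE 0.06, adjusted p = 0.032). Of 7 genes for propeptide cleavage 1 was higher and 1 lower. Among 9 genes of degradation 3 were lower and none higher, with Ctsk, the collagenase of osteoclasts, at 268 and 290.2 against 173 and 168 FPKM (−0.71, SE 0.06, adjusted p = 0.00556). Of 8 collagen receptors 2 were higher and 3 lower: Ddr2, the discoidin receptor of mesenchymal cells, was at 20.6 and 19.4 against 29.2 and 30.9 FPKM, and Ddr1, its counterpart in epithelia, at 49.2 and 45.6 against 33.5 and 31.8 FPKM.

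At E14.5 no collagen gene passed the adjusted p between the genotypes by limma, among 37 tested and beside 0.209% of all genes tested. At an unadjusted p of 0.05 there were 10 of 37, against 9.46% of all genes tested, and the genotypes did not overlap in 23 of 37, against 40.6%. The 10 were Col14a1, Col5a3, Col6a1, Col9a3, Col12a1, Col6a6, Col17a1, Col3a1, Col24a1 and Col1a2, and Col24a1 was the only member of these 10 with the lower level in Notum−/−. Over the 37 tested the median log2 fold change was 0.12, against −0.0058 over all genes tested, and 26 of the 37 values were above 0.

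Col14a1, a FACIT collagen of tendon and skin, and Col5a3, the third type V chain, came closest. Col14a1 was at 14.7 and 12.9 FPKM in Notum+/+ and 21.8 and 23.8 FPKM in Notum−/− (log2 fold change 0.72, SE 0.09, adjusted p = 0.0924 by limma), and Col5a3 at 1.27 and 1.28 against 2.22 and 2.26 FPKM (0.77, SE 0.12, adjusted p = 0.16 by limma). In both genes the groups lay apart by more than the spread within either. In a fit of all 8 libraries both passed (limma adjusted p of 0.00625 for Col14a1 and 0.00836 for Col5a3), beside 1.67% of all genes tested. With voom on rebuilt reads 5 collagen genes passed, these and Col1a1, Col6a1 and Col6a6, beside 2.03% of all genes tested. Markers of skeletal muscle (3 of 10) and of oral epithelium (2 of 7) were higher in Notum−/− at this age, with Krt13, a keratin of oral lining, at 8.96 and 8.95 against 76.3 and 75.7 FPKM, and their part in the collagen values was not tested.

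From E14.5 to E16.5 the 4 basement membrane genes tested rose in Notum+/+ molars, and 5 of 6 tested genes of the cartilage list fell. Of 39 collagen genes tested, 27 passed the adjusted p (15 rose and 12 fell; limma with Benjamini-Hochberg adjustment over 18415 genes), and the ages did not overlap in 35. Over all genes tested 40.1% passed, 21.3% upward and 18.8% downward, and 73.9% did not overlap. All 4 basement membrane genes tested rose (median log2 fold change 0.58). Col4a6 had 0.87 (SE 0.09), Col4a1 0.64 (SE 0.07), Col4a2 0.53 (SE 0.06) and Col4a5 0.28 (SE 0.07), with limma adjusted p from 0.00327 to 0.0276. The ratio of the X-linked neighbours Col4a5 to Col4a6 went from 4.30 and 4.63 to 2.81 and 3.03.

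The largest rises in Notum+/+ were spread over classes. Col5a3 went from 1.27 and 1.28 to 6.99 and 6.26 FPKM (2.29, SE 0.10, adjusted p = 0.000613). Col7a1 went from 11.2 and 10.4 to 36.5 and 33.1 FPKM (1.68, SE 0.07, adjusted p = 0.000613), and Col17a1 from 21.8 and 19.2 to 57.2 and 53.2 FPKM (1.43, SE 0.08, adjusted p = 0.000967). Both of these epithelial genes rose while 9 of 9 markers of dental epithelium did so (median 1.60), and the part of that shift in their values was not tested. Col28a1 rose from 0.254 and 0.344 to 1.08 and 1.03 FPKM (1.54, SE 0.25, adjusted p = 0.0109), and Col6a5, a relative of Col6a3, rose from 0.110 and 0.188 to 0.524 and 0.614 FPKM (1.44, SE 0.37, adjusted p = 0.0357). Both of these genes passed the filter on low values only through the later age, so a difference was built into their being tested. Col14a1 and Col18a1 rose by 1.16 and 0.93 on the log2 scale.

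The largest falls in Notum+/+ came from the FACIT, fibrillar and transmembrane classes, with the cartilage collagens Col9a1 and Col2a1 at the head. Col9a1 fell from 4.87 and 4.73 to 0.639 and 0.480 FPKM (−2.90, SE 0.16, adjusted p = 0.00089), and Col2a1 from 30.9 and 29.4 to 7.46 and 6.92 FPKM (−2.05, SE 0.06, adjusted p = 0.000367). Of the 6 tested genes of the cartilage list 5 fell and only Col9a3 rose, from 7.37 and 7.36 to 13.2 and 12.6 FPKM (0.80, SE 0.06, adjusted p = 0.00155). Col27a1, a chain of cartilage that is not on that list, also rose (0.54, SE 0.08, adjusted p = 0.00916 by limma). Among 9 other cartilage markers 6 fell and 3 rose (median −1.21), with Matn1 going from 8.17 and 8.64 to 0.0789 and 0.0190 FPKM; their part in the collagen values was not tested. Col24a1 fell from 7.91 and 8.37 to 2.26 and 2.22 FPKM (−1.81, SE 0.08, adjusted p = 0.000592), Col25a1 from 7.06 and 7.12 to 2.35 and 2.42 FPKM (−1.53, SE 0.08, adjusted p = 0.000709), and Col22a1, a FACIT gene of tissue junctions, from 6.93 and 6.18 to 3.69 and 3.69 FPKM (−0.81, SE 0.09, adjusted p = 0.00393). Type I and type III genes did not pass in this comparison. With either Notum+/+ library at E16.5 left out, fewer collagen genes and a smaller share of all genes tested passed.

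In Notum−/− molars, 17 of 38 collagen genes tested passed between the ages (7 rose and 10 fell, with 11.9% of all genes tested passing, 7.43% upward and 4.51% downward). The ages did not overlap in 32, against 60.7% of all genes tested. Col5a3 rose from 2.22 and 2.26 to 6.39 and 6.21 FPKM (1.45, SE 0.08, adjusted p = 0.00273 by limma), and Col7a1 from 10.6 and 11.0 to 23.6 and 24.2 FPKM (1.14, SE 0.05, adjusted p = 0.0018 by limma). Col17a1 rose from 23.8 and 26.5 to 35.3 and 35.5 FPKM (0.49, SE 0.07, adjusted p = 0.0173 by limma), and Col14a1 from 21.8 and 23.8 to 30.7 and 30.0 FPKM (0.41, SE 0.06, adjusted p = 0.0213 by limma). Col4a1, Col4a2 and Col18a1 rose by 0.37, 0.36 and 0.34 on the log2 scale, while Col4a5 and Col4a6 did not pass. With no trend of variance Col17a1, Col14a1, Col4a1, Col4a2 and Col18a1 missed the threshold (limma adjusted p from 0.0689 to 0.109). With no filter Col4a1, Col4a2 and Col18a1 missed it too (limma adjusted p from 0.0631 to 0.0783). All 6 tested genes of the cartilage list fell, Col9a3 among them (−0.43, SE 0.08, adjusted p = 0.0338). The call of Col9a3 was lost with no filter (limma adjusted p = 0.058) and with no trend of variance (limma adjusted p = 0.0864). That of Col11a1 was lost with no filter, with no trend and with the replicate block (limma adjusted p of 0.058, 0.117 and 0.0517). Of 9 other cartilage markers tested 5 fell and 2 rose (median −0.86), and 8 of 9 markers of dental epithelium rose (median 0.79). The part of these shifts in the collagen values was not tested. Col9a1 fell from 5.32 and 6.18 to 0.327 and 0.535 FPKM (−3.49, SE 0.23, adjusted p = 0.00441 by limma) and Col2a1 from 30.4 and 32.0 to 5.68 and 4.94 FPKM (−2.54, SE 0.08, adjusted p = 0.00115 by limma). Col24a1 fell by 0.97, Col9a2 by 0.76, Col22a1 and Col11a2 by 0.69 and Col25a1 by 0.57 on the log2 scale. With either Notum−/− library at E16.5 left out, few or none of the calls for age in Notum−/− remained. Few or no genes of the whole table passed in those fits.

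**Figure D5:**
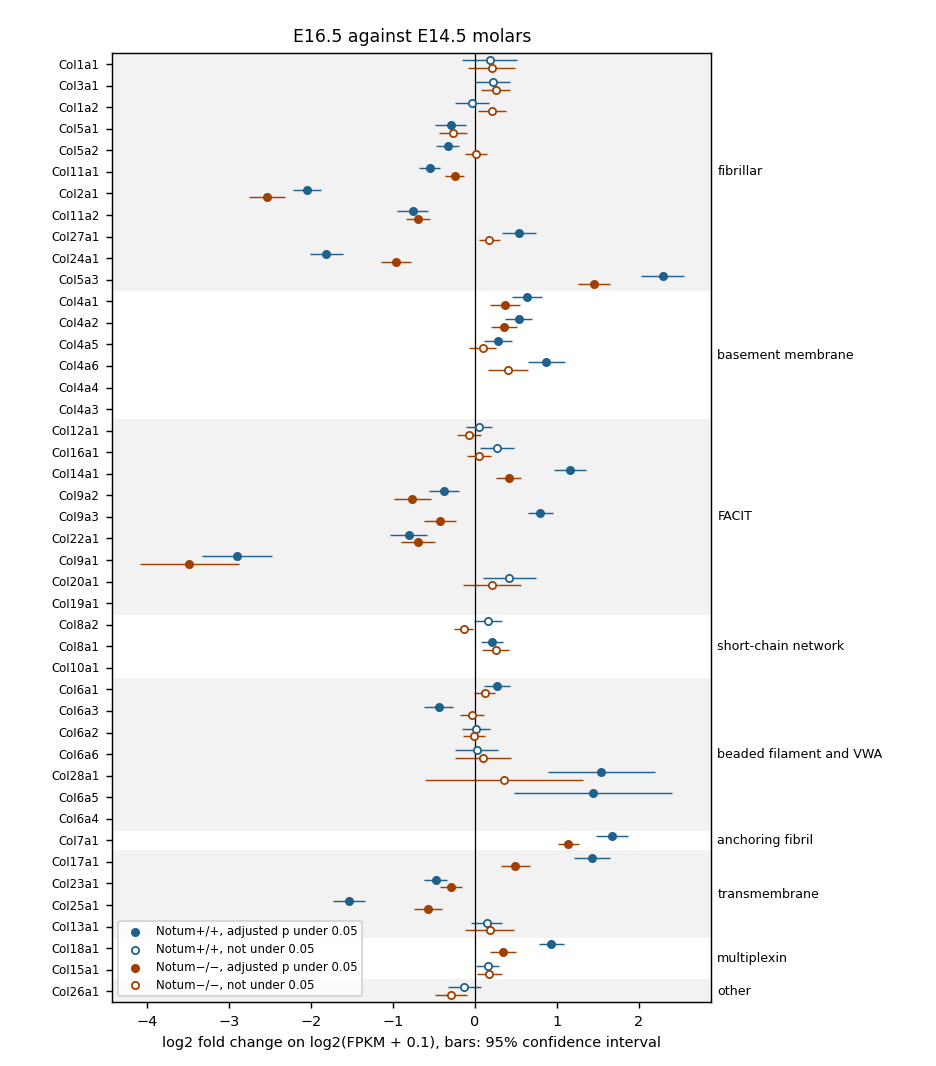
Log2 fold change of E16.5 against E14.5 with its 95% confidence interval for each collagen gene tested, blue for Notum+/+ and brown for Notum−/−, filled where the adjusted p was under 0.05. Col9a1 and Col2a1 lie far to the left in both genotypes, Col5a3 and Col7a1 to the right in both, and Col9a3 lies on opposite sides of 0.

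The genotype effects at the ages were set against each other in a fit of all 8 libraries. The difference, the effect at E16.5 less that at E14.5, passed in 15 of 38 collagen genes (5 upward and 10 downward; limma with Benjamini-Hochberg adjustment over 18450 genes), and in 19.7% of all genes tested, 9.38% upward and 10.3% downward. Col25a1 (0.96, SE 0.08, adjusted p = 0.00268) and Col24a1 (0.85, SE 0.09, adjusted p = 0.00513) had the largest upward differences: in both, the fall from E14.5 to E16.5 was smaller in Notum−/−. Col6a3 (0.41), Col5a2 (0.35) and Col11a1 (0.31) followed. The largest downward difference was that of Col9a3 (−1.23, SE 0.09, adjusted p = 0.00204), which rose with age in Notum+/+ and fell in Notum−/−. Col17a1 (−0.93, SE 0.11, adjusted p = 0.00654), Col18a1 (−0.59, SE 0.08, adjusted p = 0.0087) and Col7a1 (−0.54, SE 0.09, adjusted p = 0.0127) rose in both genotypes and less so in Notum−/−. In the same test 8 of 9 markers of dental epithelium (median −0.56) and 5 of 7 of oral epithelium (median −1.51) went downward and none upward, and their part in these collagen values was not tested. For Col5a3 (−0.84, SE 0.11, adjusted p = 0.00813) and Col14a1 (−0.75, SE 0.10, adjusted p = 0.00786) the difference came with a higher level in Notum−/− at E14.5 and similar values at E16.5, where Col14a1 was at 31.0 and 30.8 against 30.7 and 30.0 FPKM. Col1a1 and Col3a1 had higher values in both Notum−/− libraries at either age but did not pass between the genotypes at E14.5. Their differences between the ages did not pass (0.022, SE 0.15, and 0.034, SE 0.090). Rescaled to TPM, 13 genes passed, 7 upward and 6 downward, beside 22.9% of all genes tested. With the trend on GC content removed 13 passed, 8 upward and 5 downward (12.6% of all genes tested). With the trend on gene length removed 15 passed, 3 upward and 12 downward (16.8% of all genes tested). With any of the 8 libraries left out, fewer collagen genes and a smaller share of all genes tested passed.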

How the data were processed

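RNA was sequenced from molar tooth germs in 8 libraries, 2 for each genotype and age, which were grouped by their labels. The authors mapped reads to mm10 with HISAT2 2.0.5, counted them per gene with featureCounts 1.5.0-p3 (both per the submitters' processing notes) and deposited FPKM per gene beside a gene length. The gene annotation and the use of strand are not given in the sources used here; GC content came from GENCODE M21, in which all 44 collagen genes had the same coordinates. Read counts rebuilt from FPKM and length were whole within 0.05 reads in 100% of values, and the deposited scaling equals a median-ratio size factor.

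Groups were compared with limma 3.58.1 in R 4.3.3 (lmFit, eBayes with a trend of variance on level) on log2(FPKM + 0.1), so fold changes of low genes are understated. Genes with a mean above 0.3 FPKM in the libraries of a fit were tested, with Benjamini-Hochberg adjustment over all of them and an adjusted p under 0.05 as the call. The 4 comparisons of 2 groups used 4 libraries each, and the difference of genotype effects used all 8. The authors tested counts with DESeq2, which does not take FPKM. Values were given in every library for the 10 collagen genes with the highest mean and, in each comparison, for at most 5 rises and 5 falls that passed without overlap; a few further members were named for their class. The members and lists were chosen with earlier results of these data known. Nothing shows that the 2 libraries of a group came from separate litters, so p-values measure the spread between these pools. The fit was tried on simulated reads with known changes and the same assumed spread for every gene. For genotype at E14.5 it recovered 0% of 1.25-fold, 18% of 1.5-fold, 55.1% of 2-fold and 92% of 4-fold changes. At E16.5 the shares were 0%, 16%, 37.8% and 100%. Unchanged genes passed 17 times at E14.5 and 23 times at E16.5. Only 45 to 50 genes were changed at each size, far fewer than the 5747 that passed in the real fit at E16.5. That makes the adjusted p stricter in the simulation, so its shares at E16.5 cannot be read as the power of the real fit. A gene that did not pass can still differ. Alternatives included voom, as part of limma, on rebuilt reads; their effect is given in the closing section.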

Additional observations from a re-analysis of the deposited data

Results flagged for a closer look

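The genotype effect differed between the ages in 15 collagen genes by the interaction test of limma, whose values are the effect at E16.5 less that at E14.5 on the log2 scale. It was more negative at E16.5 for the type IX chain Col9a3 (−1.23), the hemidesmosome collagen Col17a1 (−0.93), the type V chain Col5a3 (−0.84), the FACIT gene Col14a1 (−0.75), the basement membrane proteoglycan Col18a1 (−0.59), the anchoring fibril gene Col7a1 (−0.54), the cartilage collagen Col2a1 (−0.48), the basement membrane chain Col4a6 (−0.47), the fibrillar gene Col27a1 (−0.36) and the short-chain gene Col8a2 (−0.30). It was more positive for the fibrillar genes Col11a1 (0.31), Col5a2 (0.35) and Col24a1 (0.85), the type VI chain Col6a3 (0.41) and the membrane collagen Col25a1 (0.96). Col17a1, Col18a1, Col25a1, Col24a1, Col6a3, Col9a3, Col5a3 and Col14a1 passed in the same direction in every alternative that kept all 8 libraries.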

How the results depend on the processing

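The alternatives were pseudocounts of 1 and 0.01 FPKM, a filter of 1 FPKM, no filter, TPM, the median ratio, no trend of variance, the replicate block (the replicate number as a factor), voom on rebuilt reads, all 8 libraries in one fit, each library left out in turn and, added after the data were seen, removal of trends on GC content and on gene length. At E14.5 between the genotypes, voom called 5 collagen genes (2.03% of all genes tested) and the fit of all 8 libraries 2 (1.67%). At E16.5 the count of 20 became 0 to 15 with a library left out. From E14.5 to E16.5 in Notum+/+ the count of 27 became 13 to 21. In Notum−/− the count of 17 became 11 with no filter, 9 with no trend, 26 with voom and 0 to 12 with a library left out. The count of 15 for the difference between ages became 7 to 14 with a library left out. A group left with a lone library was assumed to vary like the others. Over the alternatives that kept all libraries, calls held in 11 of 20 collagen genes at E16.5, in 21 of 27 and 9 of 17 for age in Notum+/+ and Notum−/−, and in 8 of 15 for the difference. Col28a1 and, for age in Notum+/+, Col6a5 were not tested with the filter of 1 FPKM and are not counted as held.

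Signs changed in some setting, a left-out library included, in 8 collagen genes at E14.5, 14 at E16.5, 8 and 4 for age in Notum+/+ and Notum−/−, and 13 for the difference. Values follow for the genes that passed in at least 1 setting. With the GC trend removed, the genotype effect at E16.5 became 0.027 in Col4a1, 0.060 in Col4a2, 0.033 in Col8a2 and 0.25 in Col11a2 (limma adjusted p = 0.0273), and the age effect in Notum+/+ became −0.049 in Col1a1, −0.075 in Col8a2 and −0.032 in Col15a1. With the length trend removed, the genotype effect at E16.5 became −0.010 in Col12a1, −0.060 in Col26a1 and −0.00011 in Col15a1, and the difference between ages −0.0025 in Col11a2. Col11a2 at E16.5 became 0.060 with TPM. With a library left out, values at E16.5 ran from −0.053 to 0.011 in Col11a2 and from −0.00056 to 0.080 in Col15a1, and the difference in Col11a2 from −0.0093 to 0.14. The cause was not tested. TPM moved the median difference between ages over all genes to 0.11.

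With the replicate block 0 collagen genes passed at E14.5 (0.011% of all genes tested) and 15 at E16.5 (21%). For age 27 passed in Notum+/+ (38.2%) and 16 in Notum−/− (11.9%), and for the difference 13 did (12.5%). Libraries with the same number did not deviate together (correlations from −0.13 to 0.05), and no label says that a number marks a litter or day. Counting depth limits the genes at the bottom of the family; those with a mean above 1 FPKM had at least 51 reads in every library.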

Other observations

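Chains that assemble together kept ratios within narrow ranges in some types and not in others. Col1a1 to Col1a2, whose products combine in a fixed proportion in type I collagen, ran from 2.55 to 3.25 in FPKM over the 8 libraries. Col4a1 to Col4a2 ran from 1.30 to 1.45, with both genes higher at E16.5. The ratio of Col4a5 to Col4a6 was 4.24 and 4.30 in Notum−/− at E14.5 and 3.33 and 3.52 at E16.5. The ratio of Col8a2 to Col8a1 was 2.90 and 2.85 in Notum+/+ at E16.5 and 2.24 and 2.28 in Notum−/−. Col6a1 to Col6a2 was 1.58 and 1.65 in Notum+/+ at E14.5 and lay between 1.91 and 1.96 in the 4 libraries at E16.5.

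Some collagen genes overlap other listed genes, and reads of an overlapping pair cannot be told apart where strand was not used. Col10a1 lies within 7105 bases of Nt5dc1, which had a mean of 2.96 FPKM against 0.0626 FPKM for Col10a1. Col5a1 overlaps Gm13372 over 5021 bases (5.98 FPKM), and Col20a1 overlaps 9230112E08Rik over 741 bases (2.99 FPKM against 1.71 FPKM for Col20a1).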
